A study of Mus musculus with 27 samples.

Results

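Day 12 was compared with day 14 of osteoblast differentiation in cultured mouse calvarial cells, using the 6 expression profiles labelled with these days out of 27 in the temporal series. Genes with at least 30 estimated counts summed over the 6 profiles were compared, which kept 14768 of 37991 genes. The series followed the cells every other day from day 2 to day 18 by RNA sequencing, with 3 profiles a day. All groups shared the strain C57BL/6J-Col3.6 CFP, in which a fragment of the Col1a1 promoter drives cyan fluorescent protein (CFP). Their labels set them apart by the day alone, and the day cannot be told apart from the library. Cells were released by enzymes from calvariae of neonatal mice aged 5 to 9 days, grown for 4 days, sorted for CFP and returned to culture in medium with ascorbic acid, 4 mM beta-glycerol phosphate and fetal bovine serum. The promoter fragment marks cells that make collagen type I rather than osteoblasts alone, and neither the number of mice nor whether they were pooled was given in the sources used here. No cells were sorted again on day 12 or day 14.

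The 3 profiles of each day shared a barcode and came from different lanes, so each day was treated as 1 library. The labels number them as replicates, the study's methods call them triplicates, and whether cultures were separate was not given in the sources used here. Where no read had been divided between genes, the lanes of a day agreed within sampling noise, and chi-square over its degrees of freedom was 1.01 for 9987 genes on day 12 and 1.01 for 9885 genes on day 14. Over all genes, those with divided reads included, it was 1.39 on day 12 and 1.29 on day 14, so the intervals of genes with fractional counts understate the error. The lanes were summed, to 62009157 counts on day 12 and 45150324 on day 14, and counted as 1 sample each. With 1 library a day no difference has a replicate check, no p-value is given, and genes were ranked by the size of the change. Whether the lanes of day 12 and day 14 overlap depends on read depth as well as on the change, so it is no such check. A change is the log2 ratio of summed counts, day 14 over day 12, after upper-quartile normalization. The 95% interval printed with it is an exact (Clopper-Pearson) interval that covers counting error only. Counts printed for single genes are sums before scaling. A level is in TPM, the transcript abundance per length scaled to 1000000 over a profile, after the upper quartile of each profile had been brought to a common value.

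Osteoblasts lay down a matrix of collagen type I, bind mineral to it with acidic and vitamin K-dependent proteins such as osteocalcin, and raise the local phosphate supply with enzymes of the cell surface and of matrix vesicles. Adipocytes arise from the same mesenchymal progenitors under the control of Pparg and Cebpa, store triglyceride in droplets coated by perilipins, and secrete adiponectin and adipsin. Calvarial cultures can also hold monocytes and macrophages, the lineage from which osteoclasts form, and many cell types raise antiviral genes when they sense interferon.

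Promoters are shown for 4 interferon-stimulated genes and for osteocalcin, because these genes carry results described below and hold a sequence element known in their families. Each sequence is the 250 bases before the start of the gene on its own strand, from RefSeq on GRCm38.p6. In the first 4, capitals mark a pair of GAAA sites with any 2 bases between them, or the reverse complement (a pair of TTTC sites spaced likewise), the arrangement of an interferon-stimulated response element. In the last, capitals mark ACCACA, the core recognised by Runx factors, searched together with its reverse complement TGTGGT. The windows lie at chr19:34640639-34640888 on the plus strand for Ifit1, chr19:34583279-34583528 on the plus strand for Ifit3, chr4:156200819-156201068 on the minus strand for Isg15, chr12:26456453-26456702 on the minus strand for Rsad2 and chr3:88384467-88384716 on the minus strand for Bglap.
Ifit1: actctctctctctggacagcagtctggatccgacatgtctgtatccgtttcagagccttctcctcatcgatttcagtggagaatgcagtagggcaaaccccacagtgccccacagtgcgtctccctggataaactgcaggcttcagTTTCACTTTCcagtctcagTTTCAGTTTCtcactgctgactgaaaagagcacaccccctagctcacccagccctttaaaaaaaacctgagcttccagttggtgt
Ifit3: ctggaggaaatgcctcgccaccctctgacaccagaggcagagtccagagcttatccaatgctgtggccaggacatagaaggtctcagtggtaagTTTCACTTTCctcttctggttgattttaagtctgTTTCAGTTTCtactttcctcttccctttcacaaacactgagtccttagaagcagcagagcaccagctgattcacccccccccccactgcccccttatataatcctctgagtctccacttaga
Isg15: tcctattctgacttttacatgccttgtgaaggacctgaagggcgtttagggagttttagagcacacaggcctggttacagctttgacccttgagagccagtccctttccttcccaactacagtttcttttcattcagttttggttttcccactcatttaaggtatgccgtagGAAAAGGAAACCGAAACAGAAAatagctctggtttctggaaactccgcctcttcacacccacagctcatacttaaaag
Rsad2: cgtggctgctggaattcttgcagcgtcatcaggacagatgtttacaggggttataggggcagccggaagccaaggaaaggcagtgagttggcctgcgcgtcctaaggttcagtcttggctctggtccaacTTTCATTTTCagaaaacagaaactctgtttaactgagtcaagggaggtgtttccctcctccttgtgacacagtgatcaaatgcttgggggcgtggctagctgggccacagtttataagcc
Bglap: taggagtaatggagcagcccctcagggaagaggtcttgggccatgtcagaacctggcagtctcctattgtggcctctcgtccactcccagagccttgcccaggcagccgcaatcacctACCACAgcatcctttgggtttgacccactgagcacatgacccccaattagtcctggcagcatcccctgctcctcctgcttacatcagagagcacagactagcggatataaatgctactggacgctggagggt
The paired element was present in 5 of the 8 interferon-stimulated genes that had a promoter entry (62.5%) and in 936 of all 27025 genes of the table (3.463%). In Isg15 the 3 matches overlap. Among antigen presentation genes 1 of 6 promoters held it. ACCACA or its reverse complement was present in 4 of 7 promoters of mineral-binding matrix genes (57.14%) and in 15.92% of all promoters. A match describes the letters in this window and shows no binding.

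Between day 12 and day 14 few well-counted genes differed by 2-fold, and fat-cell genes were prominent among those that did. Of 8250 genes with at least 1000 counts, 11 were at least 2-fold higher on day 14 (0.133%) and 0 were at least 2-fold lower (0%). At 1.5-fold, 53 of these genes were higher (0.642%) and 28 lower (0.339%). The same 2-fold rule in either direction called 0.133% of genes in this step, 0.253% from day 10 to day 12 and 0.0754% from day 14 to day 16, steps that share a library with it. In the other steps it called 1.68% (from day 2), 1.47% (from day 4), 1.47% (from day 6), 3.55% (from day 8) and 0.403% (from day 16) of the genes with that many counts.

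By direction alone, 7215 of all genes compared were higher on day 14 (48.9%) and 7553 lower. Over all 14768 genes, 351 were at least 2-fold higher (2.38%) and 395 at least 2-fold lower (2.67%), and most of these had few reads. The share past 2-fold in either direction was 29.4% of genes with 30 to 99 counts, 8.97% with 100 to 299, 1.03% with 300 to 999 and 0.133% with 1000 or more. A 2-fold difference in a gene with under 300 counts is read against the share of its class. At 1.5-fold, 882 genes were higher (5.97%) and 935 lower (6.33%).

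**Figure D1:**
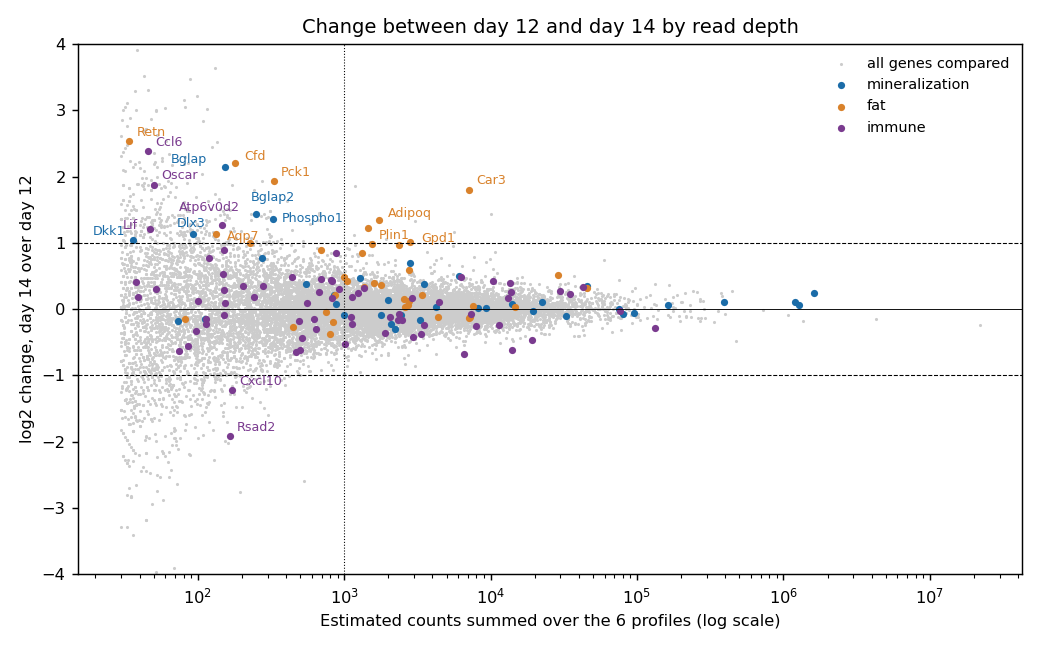
Change between day 12 and day 14 for every gene compared. The horizontal axis is the estimated count summed over the 6 profiles (log scale), the vertical axis is the log2 change, and coloured points are mineralization, fat and immune genes, named where the change reached 2-fold (dashed lines). Spread narrows with depth, and right of the dotted line at 1000 counts the named points are Car3, Adipoq, Plin1 and Gpd1; 26 genes lie outside the plotted range.

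The label was checked on defining osteoblast markers. Runx2, the master transcription factor of the lineage, had levels of 64.4, 61.8 and 70.8 TPM in the 3 profiles of day 12 and 60.7, 62.4 and 67.2 TPM on day 14. Col1a1, the main collagen chain of bone, averaged 4174 TPM on day 12 and 4249 TPM on day 14. Sp7, the factor downstream of Runx2, averaged 7.06 and 6.66 TPM. Alpl and Ibsp were both at 17.1 TPM on day 12, and Bglap was at 6.08 TPM, so all 6 defining markers were present in both libraries. Of 8 late osteoblast and osteocyte genes, 6 passed the filter, with Pdpn at 122 and 118 TPM, Phex at 13.8 and 18.9 TPM and Panx3 at 13.1 and 12.0 TPM. The other 2 were near 0, Sost with 2 counts on day 12 and 0 on day 14 and Fgf23 with 0 and 1, where a count of 0 allows up to 0.0484 counts per 1000000 on day 12 and 0.0664 on day 14.

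Fat genes had the highest median change of the 3 groups described. Of 41 listed genes, 37 passed the filter, 29 were higher on day 14 and 8 lower, beside 48.9% of all genes higher. Their median log2 change was 0.37 against -0.01 over all genes compared. In all, 8 of the 37 were at least 2-fold higher, beside 2.38% of all genes, and 0 were at least 2-fold lower. Among the 24 fat genes with at least 1000 counts 4 were 2-fold higher, beside 0.133% of all genes of that depth. At 1.5-fold, 13 were higher and 0 lower, beside 5.97% and 6.33% of all genes. The lists were chosen with earlier results of these data known, so these shares describe the lists and are no independent test.

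Car3, a carbonic anhydrase abundant in adipocytes and muscle (ENSMUSG00000027559, chromosome 3 of NCBIM37, 14863538 to 14872351, plus strand), had levels of 45.7, 44.8 and 44.7 TPM on day 12 and 148, 155 and 148 TPM on day 14. Its counts went from 1983 to 5171, a log2 change of 1.80 (interval 1.72 to 1.87), or 3.48-fold. Among listed genes with at least 1000 counts this was the largest difference. Adipoq, which encodes adiponectin (ENSMUSG00000022878, chromosome 16, 23146609 to 23158101, plus strand), had 18.2, 15.6 and 17.1 TPM on day 12 and 40.4, 41.7 and 36.8 TPM on day 14. Its log2 change was 1.34, or 2.53-fold (interval 2.29 to 2.81). The other adipokines compared were also higher, the least of them Rarres2, at 33.7 and 43.2 TPM with a log2 change of 0.42. Cfd, the complement protease adipsin, went from 40 to 139 counts and Retn, resistin, from 6 to 28. Their log2 changes were 2.20 (interval 1.70 to 2.76) and 2.53 (interval 1.34 to 4.20). In their count classes 4.00% and 13.4% of genes were 2-fold higher. Lep, leptin, had 6 and 7 counts and did not pass the filter.

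Among lipid droplet proteins the members did not move alike. Plin1, the perilipin of mature adipocytes, had 9.61, 9.71 and 7.66 TPM on day 12 and 21.1, 18.4 and 20.7 TPM on day 14, a log2 change of 1.22 (interval 1.07 to 1.38). Cidec, which enlarges droplets, averaged 20.3 and 32.9 TPM, a log2 change of 0.89 (interval 0.67 to 1.12). Plin2, the perilipin found in most cells that hold lipid, went from 68.0 to 60.2 TPM, with a log2 change of -0.12, and Plin5 had 5 and 3 counts. Plin1 was higher on day 14, whereas Plin2 differed little.

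Of 5 genes of fatty acid uptake and binding, 4 were higher on day 14. Fabp4, the fatty acid binding protein of adipocytes, had 44.5, 48.3 and 52.1 TPM on day 12 and 90.6, 95.5 and 88.4 TPM on day 14, just under 2-fold with a log2 change of 0.98 (interval 0.83 to 1.13). Cd36, a fatty acid transporter, averaged 8.43 and 15.8 TPM, a log2 change of 0.96 (interval 0.84 to 1.08). Fabp5, a relative of Fabp4 expressed in many tissues, went from 19.2 to 15.8 TPM, a log2 change of -0.19. Lpl, the lipase that frees fatty acids from lipoproteins, was by far the most abundant of the 5, at 256 and 317 TPM, with a log2 change of 0.31 (interval 0.29 to 0.34).

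Of 11 genes of fatty acid and triglyceride synthesis, 8 were higher and 3 lower by counts, and 1 of the 3 lower, Acaca, was higher by TPM (log2 change -0.13 by counts and 0.79 by TPM). Gpd1, which makes glycerol 3-phosphate and had fractional counts, averaged 19.1 and 39.0 TPM (log2 change 1.01, interval 0.90 to 1.12), and Dgat2, which adds the last acyl chain, 7.96 and 13.7 TPM (log2 change 0.84, interval 0.69 to 1.01). Pck1, the enzyme of glyceroneogenesis, went from 85 to 244 counts, a log2 change of 1.93 (interval 1.58 to 2.31). With TPM the change of Pck1 was 1.28, still past 2-fold. Fasn and Acly, which build the fatty acid chain, had log2 changes of 0.03 and 0.04, and Scd1, which desaturates it, 0.51 (interval 0.47 to 0.54). Dgat1 was the lowest of the list, at -0.38. Of the lipolysis genes, Pnpla2, the first triglyceride lipase, had a log2 change of 0.58 (interval 0.48 to 0.69), Lipe 0.49 and Mgll 0.37. Aqp7, the glycerol channel, had 1.13 by counts but 0.31 by TPM, and its 3 day 12 profiles of 0.551, 0.757 and 1.80 TPM overlapped the day 14 profiles.

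Of 6 factors of adipogenesis, 4 were higher and 2 lower, with a median log2 change of 0.09, and Klf15 had the largest change. Pparg had 26.4, 28.1 and 27.3 TPM in the lanes of day 12 and 31.6, 27.4 and 26.8 TPM in those of day 14. Its lanes overlapped, and its log2 change was 0.13 (interval 0.02 to 0.23). Cebpa averaged 18.0 TPM on both days. Klf15, a factor induced late in adipogenesis, went from 91 to 136 counts, a log2 change of 0.99 (interval 0.60 to 1.39). Ucp1, which defines brown fat, had 0 counts on both days. In bulk cultures, more cells of a type and more RNA per cell cannot be told apart.

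**Figure D2:**
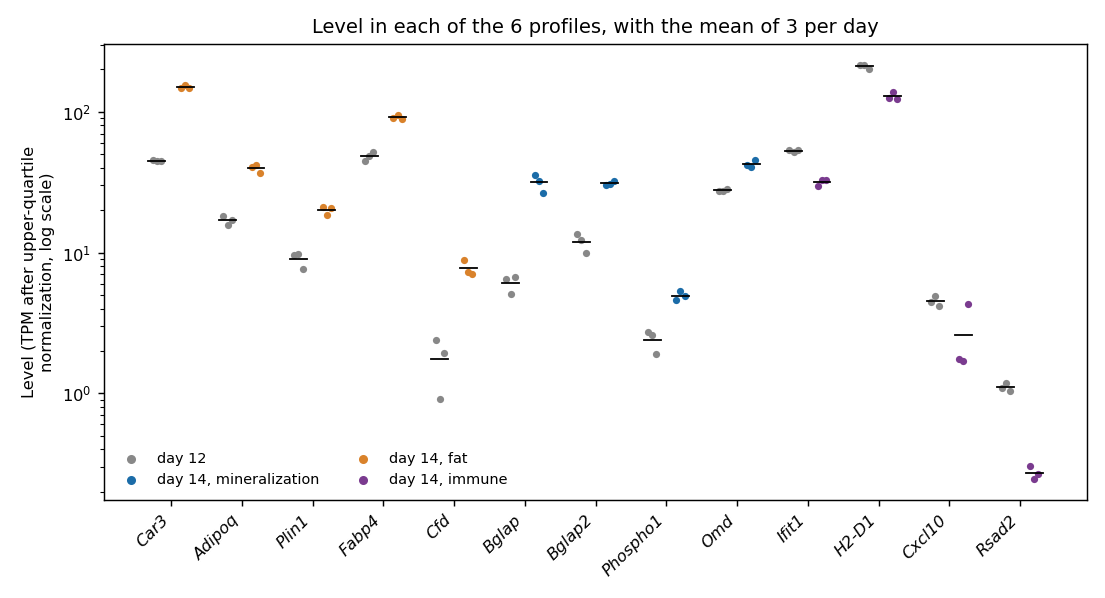
Level of 13 genes in each of the 6 profiles. The vertical axis is TPM after upper-quartile normalization (log scale), points are the 3 profiles (lanes of 1 library) of each day and bars their mean. Day 14 lies above day 12 for the fat and mineralization genes plotted and below it for Ifit1, H2-D1 and Rsad2, whereas 1 of the 3 day 14 profiles of Cxcl10 lies among those of day 12.

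Mineralization genes differed less as a group, and those past 2-fold with at least 100 counts were osteocalcin genes and a phosphatase. Of 43 listed genes, 38 passed the filter, 26 were higher on day 14 and 12 lower, beside 48.9% of all genes higher. Their median log2 change was 0.08 against -0.01 over all genes. At least 2-fold higher were 5 of the 38, beside 2.38% of all genes, and 0 were 2-fold lower. All 5 had fewer than 1000 counts. Of the 26 members with at least 1000 counts 0 passed 2-fold, beside 0.133% of all genes of that depth, so that a list of this length could not be told apart from the background.

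Osteocalcin is encoded by neighbouring near-identical genes, so reads were shared between them by the estimation. Bglap (ENSMUSG00000074483, chromosome 3 of NCBIM37, 88187423 to 88188386, minus strand) had 6.51, 5.03 and 6.70 TPM on day 12 and 35.7, 32.1 and 26.5 TPM on day 14. Bglap2 (ENSMUSG00000074486, chromosome 3, 88181658 to 88182621, minus strand) had 13.6, 12.2 and 9.92 TPM on day 12 and 30.1, 30.9 and 32.1 TPM on day 14. Both genes were higher on day 14, with log2 changes of 2.15 (interval 1.61 to 2.76) and 1.44 (interval 1.05 to 1.84). The division between the copies does not affect their sum: with Bglap3, the 3 genes held 123 counts on day 12 and 289 on day 14, a log2 change of 1.64 (interval 1.34 to 1.96). Singly, Bglap and Bglap2 lie among genes with 100 to 299 counts, of which 4.00% were 2-fold higher. Their sum lies in the class of 300 to 999 counts, where 0.689% were.

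Phospho1, the phosphatase that releases phosphate inside matrix vesicles, had 2.73, 2.58 and 1.91 TPM on day 12 and 4.57, 5.35 and 4.88 TPM on day 14. Its log2 change was 1.36 (interval 1.03 to 1.71) by counts, which were fractional, and 1.00 by TPM. The other enzymes of phosphate and pyrophosphate handling differed less or the other way. Alpl, tissue-nonspecific alkaline phosphatase, had 17.3, 16.8 and 17.3 TPM on day 12 and 13.7, 12.6 and 13.5 TPM on day 14, a log2 change of -0.31 (interval -0.43 to -0.18). Enpp1, which makes pyrophosphate, had a log2 change of -0.17 and Ank, which exports it, 0.04. The phosphate transporter Slc20a2 had 0.38 (interval 0.28 to 0.47), and Slc20a1 had -0.09.

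The other mineral-binding proteins were mostly level. Ibsp, bone sialoprotein, had a log2 change of 0.14 (interval 0.01 to 0.27), Spp1, osteopontin, -0.04 and Mgp, an inhibitor of mineralization, -0.11 (interval -0.14 to -0.08). Sparc, osteonectin, the most abundant of them, averaged 19518 and 22577 TPM, a log2 change of 0.24 (interval 0.23 to 0.24). Dmp1, a phosphoprotein of late osteoblasts and osteocytes, had 1.37, 1.54 and 1.13 TPM on day 12 and 2.31, 1.96 and 2.35 TPM on day 14, a log2 change of 0.77 (interval 0.42 to 1.13). Phex, a peptidase of the same cells, had 0.50 (interval 0.42 to 0.57).

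Collagen chains were nearly level: Col1a1 had a log2 change of 0.06, Col1a2 0.10, Col3a1 0.10 and Col5a1 -0.08. Omd, osteomodulin, a proteoglycan of mineralized matrix, had 27.4, 27.6 and 28.1 TPM on day 12 and 42.0, 40.8 and 45.3 TPM on day 14. Its log2 change of 0.69 (interval 0.58 to 0.80) was the largest of the 26 well-counted members. Plod2, which hydroxylates collagen for crosslinking, had 0.35. Among 7 osteoblast transcription factors, Dlx5 had a log2 change of 0.47 (interval 0.31 to 0.63), Runx2 0.10, Sp7 0.07 and Msx2 -0.22. Dlx3 went from 35 to 58 counts and Dkk1, a secreted Wnt inhibitor, from 14 to 22, both past 2-fold by counts in a class where 13.4% of genes were. By TPM neither was, with log2 changes of 0.93 and 0.75. The median of the 7 factors was 0.07 by counts and -0.05 by TPM.

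**Figure D3:**
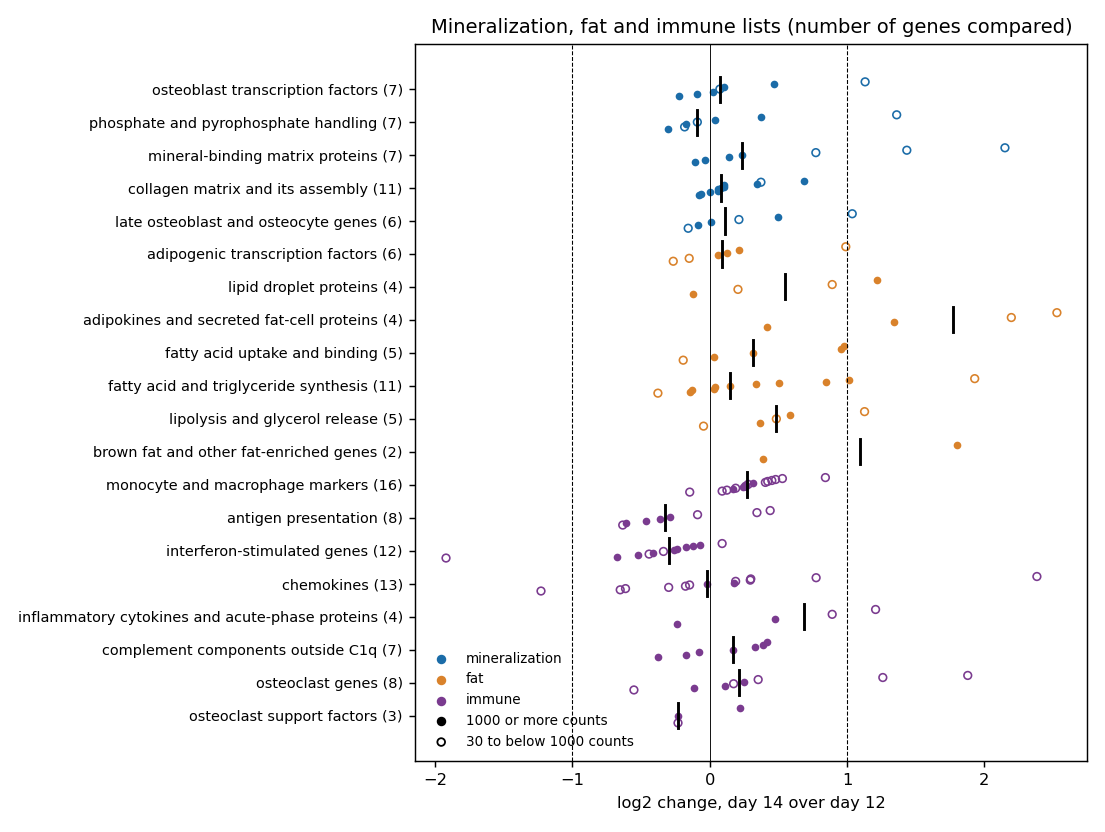
Change of each gene compared, by list. The horizontal axis is the log2 change, day 14 over day 12, filled points are genes with at least 1000 counts, open points genes with fewer, and black bars the list medians. All 4 adipokines lie to the right of 0, and 11 of 12 interferon-stimulated genes lie to the left. Of all 14768 genes compared, 7215 were higher and 7553 lower.

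Immune genes had no common direction. Of 85 listed genes, 71 passed the filter, 38 were higher on day 14 and 33 lower, beside 48.9% of all genes higher. Their median log2 change was 0.11. By counts, 4 were at least 2-fold higher (Ccl6, Lif, Oscar and Atp6v0d2) and 2 at least 2-fold lower (Rsad2 and Cxcl10), beside 2.38% and 2.67% of all genes. By TPM 2 were higher, since Lif turned to -1.33 and Atp6v0d2 was at 0.76. Of the 32 members with at least 1000 counts, 0 passed 2-fold in either direction, beside 0.133% of all genes of that depth, a share at which none would be seen in so short a list.

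Interferon-stimulated genes were lower on day 14 in 11 of 12 cases, with a median log2 change of -0.30 and a summed level of 395 TPM on day 12 and 291 TPM on day 14. Ifit1, which binds viral RNA and whose promoter holds the paired element (ENSMUSG00000034459, chromosome 19 of NCBIM37, 34715361 to 34724499, plus strand), had 53.5, 51.7 and 53.2 TPM on day 12 and 29.7, 32.6 and 32.7 TPM on day 14. Its log2 change was -0.68 (interval -0.75 to -0.60). Rsad2, viperin, had 1.08, 1.18 and 1.04 TPM on day 12 and 0.304, 0.245 and 0.265 TPM on day 14, from 138 to 27 counts (log2 change -1.92, interval -2.59 to -1.33). Rsad2 was a low-count gene in a class where 4.97% were 2-fold lower. Usp18, which restrains interferon signalling, had a log2 change of -0.53 (interval -0.72 to -0.34), and Bst2, tetherin, had -0.42. Isg15, whose promoter also holds the element, had 44.1, 33.5 and 38.1 TPM on day 12 and 31.1, 37.9 and 33.0 TPM on day 14. Those profiles overlapped, and its log2 change was -0.12 (interval -0.30 to 0.06). Ifit3 had -0.17 and Mx2, the 1 member not lower, 0.09.

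Genes of antigen presentation by class I molecules were also lower. H2-D1, a class I heavy chain, had 213, 216 and 201 TPM on day 12 and 125, 139 and 123 TPM on day 14, a log2 change of -0.61 (interval -0.66 to -0.56). H2-K1 had -0.46 (interval -0.51 to -0.42), Tap1, the peptide transporter, -0.37 and B2m, the light chain, -0.29 (interval -0.31 to -0.28). H2-K1 and H2-D1 have close relatives and fractional counts, so part of their reads was divided by the estimation. Class II genes, which professional antigen-presenting cells express, did not share the direction, with log2 changes of 0.44 for Cd74, 0.34 for H2-Aa, -0.09 for H2-Ab1 and -0.63 (interval -1.41 to 0.09) for H2-Eb1.

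Macrophage markers were slightly higher. Of 18 listed, 16 passed the filter, 15 were higher and 1 lower, beside 48.9% of all genes higher. Their median log2 change was 0.27, none of them differed 2-fold, and their summed level went from 564 to 667 TPM. C1qc, a chain of the complement starter C1q made by macrophages, had 11.5, 10.3 and 12.5 TPM on day 12 and 19.3, 19.1 and 19.9 TPM on day 14, a log2 change of 0.84 (interval 0.65 to 1.04). C1qa had 0.53 and C1qb 0.26. Lyz2, lysozyme, the most abundant, averaged 421 and 485 TPM (log2 change 0.27, interval 0.23 to 0.30), and Csf1r, the receptor for macrophage colony-stimulating factor, had 0.45 (interval 0.23 to 0.67). Ctss was the 1 marker lower, at -0.15. These markers were higher beside the immune and osteoclast genes, and their part in those changes was not tested.

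Chemokines had no shared direction, with 6 of 13 higher and 7 lower and a median of -0.02 by counts and 0.12 by TPM. Cxcl10, an interferon-induced attractant of T cells, had 4.43, 4.90 and 4.17 TPM on day 12 and 1.75, 1.69 and 4.33 TPM on day 14, so that 1 profile overlapped. Its counts went from 129 to 41, a log2 change of -1.23 (interval -1.78 to -0.72), and by TPM it was at -0.77, under 2-fold. Ccl2, which attracts monocytes, had -0.65 (interval -0.94 to -0.37), Cxcl5, which attracts neutrophils, -0.61 and Cxcl12, the most abundant at 554 and 537 TPM, -0.02. Ccl6, from macrophages, went from 9 to 37 counts and Ccl3 from 52 to 67. Il1b, Saa3 and Cxcl2 had 0 counts on both days. Il33, an alarmin of stromal cells, had a log2 change of 0.48 (interval 0.40 to 0.55). Lif went from 17 to 30 counts, with a log2 change of 1.21 by counts and -1.33 by TPM, so its direction is not given. Complement genes C3 and Serping1 had 0.39 and 0.33, and C4b had -0.38.

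Of 10 osteoclast genes listed, 8 passed the filter, 6 were higher and 2 lower. Their log2 changes ranged from -0.55 to 1.88, with a median of 0.21. They were present at low levels except for Ctsk, the collagen-degrading protease cathepsin K, which averaged 168 and 192 TPM (log2 change 0.25, interval 0.20 to 0.30). Oscar, an osteoclast receptor, went from 13 to 37 counts and Atp6v0d2, a subunit of the proton pump, from 52 to 94, with log2 changes of 1.88 (interval 0.98 to 2.96) and 1.26 (interval 0.77 to 1.79). By TPM Atp6v0d2 was at 0.76, under 2-fold, and 13.4% and 4.00% of genes in their count classes were 2-fold higher. Calcr and Tm7sf4, which mark mature fused osteoclasts, had 0 counts on both days. Csf1, which supports their precursors, had 0.22, and Tnfsf11 and Tnfrsf11b, RANKL and its decoy receptor, each had -0.23, with an interval of -0.81 to 0.33 for the former.

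**Figure D4:**
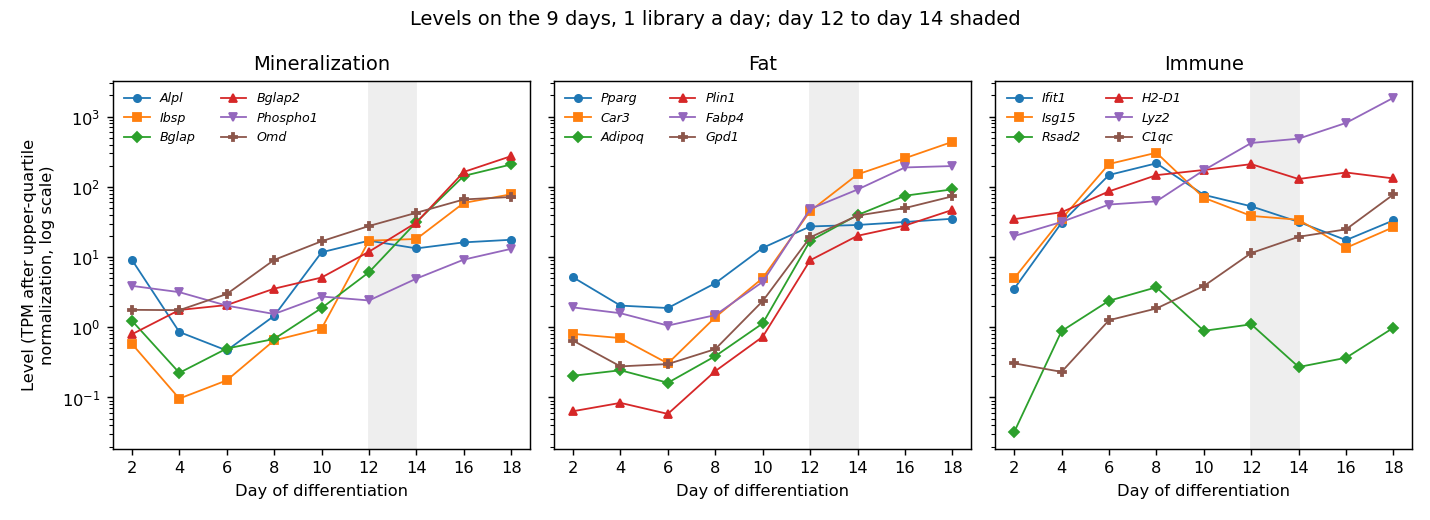
Levels of 18 genes on the 9 days. The horizontal axis is the day of differentiation, the vertical axis TPM after upper-quartile normalization (log scale), each point is 1 library and the interval from day 12 to day 14 is shaded. Bglap and Bglap2 climb through the shaded interval to 208 and 274 TPM on day 18, Pparg is nearly flat in it, and Ifit1 is past its highest level, 216 TPM on day 8.

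The levels on the neighbouring days place these differences. From day 10 to day 16 Car3 was at 5.01, 45.1, 150 and 256 TPM and Adipoq at 1.13, 17.0, 39.6 and 74.7 TPM. Their log2 changes were 3.00 and 3.69 from day 10 to day 12 and 0.73 and 0.88 from day 14 to day 16. Bglap was at 1.88, 6.08, 31.4 and 143 TPM from day 10 to day 16, with log2 changes of 2.56, 2.15 and 2.25. Ibsp went from 0.958 to 17.1 TPM before the step and from 18.1 to 59.0 TPM after it, and was nearly level within it. Ifit1 was at 76.9, 52.8, 31.6 and 17.4 TPM from day 10 to day 16, and Rsad2 at 0.889, 1.10, 0.272 and 0.368 TPM. The median log2 changes of the fat, mineralization and immune groups were 0.58, 0.13 and 0.25 from day 10 to day 12. From day 14 to day 16 they were 0.35, 0.14 and 0.13. Neighbouring steps share a library, so these values are given side by side without a comparison.

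Outside the lists, the largest well-counted differences were in single genes of varied function. Dio2, the deiodinase that activates thyroid hormone, had 16.7, 16.7 and 16.6 TPM on day 12 and 43.2, 43.7 and 42.7 TPM on day 14, a log2 change of 1.43 (interval 1.37 to 1.49). Scg2, a secretory granule protein, had a log2 change of 1.32, Ctgf, a matricellular growth factor, 1.16, Dock8, an exchange factor of immune cells, 1.12, Cilp, a cartilage matrix protein, 1.06, and Fbln7, a fibulin, 1.01. Tmem189, a read-through gene (ENSMUSG00000089739) that overlaps Ube2v1, had 1.85, but its sum with the overlapping genes had 0.02 (interval -0.02 to 0.06). Its reads were divided among overlapping genes, and the value for the gene alone is uncertain. Without it, the 10 genes past 2-fold included the 4 fat genes Car3, Adipoq, Plin1 and Gpd1. Of the 10, 5 lost 2-fold under an alternative: Ctgf (0.90) and Cilp (0.99) with TPM, Fbln7 with TPM (0.94), without mitochondrial ribosomal RNA in the totals (0.99) and without replicate 1 (0.92), Gpd1 without that RNA (0.997) and without replicate 1 (0.95), and Dock8 without replicate 1 (0.97).

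No gene with at least 1000 counts was 2-fold lower, and the 12 lowest values spanned log2 changes of -0.95 to -0.70. Under alternative processing some of these falls passed 2-fold. Ifi44 did so in 2 of 11 alternatives (-1.07 with TPM) and Gm10288 in 1 of 10 (-1.06 without replicate 2). Ifi44, interferon-induced, had 11.4, 11.7 and 9.81 TPM on day 12 and 4.26, 5.82 and 5.41 TPM on day 14, a log2 change of -0.95 (interval -1.13 to -0.77). Rtp4, also interferon-induced, had -0.70 (interval -0.84 to -0.55), and Il1rl1, the receptor for interleukin 33, -0.76. Has2, the main hyaluronan synthase, had 15.3, 14.7 and 15.5 TPM on day 12 and 8.26, 7.86 and 8.00 TPM on day 14, a log2 change of -0.85 (interval -0.97 to -0.74). The others were Tmem35 at -0.85, Gm10288 at -0.84 with fractional counts, Zim1, an imprinted zinc finger gene, at -0.75, Fam59a at -0.72, Epha2, an ephrin receptor, at -0.71, Arl6ip6 at -0.71, Nptx1 at -0.70 and Ppil3 at -0.70.

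Markers of other cells were mostly absent or near level. Of the neutrophil, lymphocyte and erythroid lists (6, 5 and 4 genes) 0 passed the filter, and of 5 mast cell genes only Cpa3 did, with 23 and 30 counts. Of 5 endothelial genes 3 passed, with Tek at -0.16, Cdh5 at 0.32 and Kdr at -2.08. Kdr had 30 and 5 counts, in a class where 16.0% of genes were at least 2-fold lower. Smooth muscle genes had a median of -0.08. DNA replication and mitosis genes had a median of -0.11, with 8 of 11 lower, beside 7553 of all 14768 genes. Mitochondrial ribosomal RNA held 25.7% of counts on day 12 and 22.6% on day 14. With totals that leave these out and no further factor, 7 fat and 5 mineralization genes were 2-fold higher.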

How the data were processed

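RNA-seq profiles of day 12 and day 14 (3 lanes of 1 library each) were analysed, with the other 21 profiles used for context and for normalization over the 9 days. The authors amplified cDNA (NuGEN Ovation), built TruSeq libraries, aligned reads to the mouse transcriptome with Bowtie 0.12.9 and estimated levels with RSEM 1.2.8 (versions from the submitters' processing notes) on NCBIM37. The deposited values are RSEM's estimated count, TPM and FPKM per gene. An estimated count divides a read that matches several genes, so it need not be whole. FPKM was not used. The authors' TPM summed to the same total in each profile, and the upper-quartile step was applied here by dividing by the 75th percentile of values above 0.

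Counts were summed per day and scaled with upper-quartile factors (edgeR 4.0.16 in R 4.3.3) over the 9 days. A prior count of 0.5 scaled to library size was added, and counts were rounded for the intervals (95%, Clopper-Pearson, scipy 1.17.1, Python 3.11.15). The floor was 3 counts per library. Amplified reads are not independent molecules, so intervals and floors cover counting error only. The calculation was tested on simulated data. Gene names matched 37205 IDs and 786 had none. Named genes were the 12 largest changes each way among genes with a symbol and 1000 or more counts, and members of the gene lists. Members and lists were chosen with earlier results of these data known. Alternatives were TMM factors, DESeq2 1.42.0 size factors, totals without mitochondrial ribosomal RNA, TPM with a pseudocount of 0.1, filters of 10 and 1000 counts, a prior count of 5, whole-number counts only, other thresholds and each replicate number left out. The replicate numbers coincide with the lanes. Values of some listed genes are not reported here.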

Additional observations from a re-analysis of the deposited data

How the results depend on the processing

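No paired analysis was possible because the values come from no test and the replicate numbers mark lanes of 1 library. Genes past 2-fold numbered 746 (351 higher, 395 lower). They numbered 1713 (812 higher, 901 lower) with a filter of 10 counts, 11 (11 higher, 0 lower) with 1000 counts, 492 with whole-number counts only (246 lower) and 1817 (882 higher, 935 lower) at 1.5-fold. Leaving out each replicate number gave 548 to 576 genes, 248 to 294 higher and 278 to 304 lower. Medians kept their sign except for the immune genes. The mineralization median of 0.0774 was 0.0915 with DESeq2 size factors, 0.0619 with totals without mitochondrial ribosomal RNA, 0.0254 with TPM, 0.0491 with 1000 counts and 0.0551 to 0.0857 without each replicate number. The fat median of 0.366 was 0.376 with TMM, 0.380 with DESeq2, 0.350 without mitochondrial ribosomal RNA, 0.314 with TPM, 0.376 with 10 counts, 0.351 with 1000 counts and 0.325 to 0.359 without each replicate number. The immune median of 0.113 was 0.0212 with TPM, -0.0958 with 1000 counts and 0.0295 to 0.110 without each replicate number. Lif reversed to -1.33 with TPM. The cause was not tested. Without replicate 2, Tmem189 had a log2 change of 2.65 and without replicate 3 it had 1.51. Over all alternatives for named genes, 386 values stayed inside the counting interval of the reported value and 10 lay outside it. Fat genes 2-fold higher numbered 4 to 9 over the alternatives, mineralization genes 0 to 5 and immune genes 0 to 7. With 1 library a day, the difference between days and the difference between libraries cannot be told apart.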

Other observations

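Immediate early genes, which many stimuli switch on within minutes, were higher on day 14 in 5 of 7 cases, beside 48.9% of all genes. Their median log2 change was 0.30, but 0.02 among the members with at least 1000 counts. Junb had 0.87 (interval 0.47 to 1.27) and Fos 0.63 (interval 0.39 to 0.88), while Jun had -0.27. Among DNA replication genes, Mcm5 and Mcm7, subunits of the replicative helicase, had -0.52 and -0.47 and Mcm2 had 0.25. Metallothionein and hypoxia response genes had a median of -0.18, with 5 of 6 lower, beside 7553 of all 14768 genes. For 5 of the 146 listed genes compared, the change by TPM and by counts lay more than 1.5-fold apart. Acaca, which makes malonyl-CoA for fatty acid synthesis, had -0.13 by counts and 0.79 by TPM. Pck1, Aqp7 and Lif were also among them.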
